A study of Rattus norvegicus with 15 samples.

Results

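Spermatogonial stem cell regulators were followed in testes of irradiated and control LBNF1 rats, an F1 hybrid laboratory strain. The 8 genes were Id4, Etv5, Bcl6b, Foxo1, Taf4b, Sall4, Uchl1 and Zbtb16, and every probe set whose single gene symbol in the platform annotation was one of these names was taken. This gave 16 of 31042 non-control probe sets, for 7 of the 8 genes. No probe set carried Zbtb16 as its single symbol, so Zbtb16 was not analysed here. The irradiated group held 5 arrays from testes after a dose of 6 Gy to the lower abdomen, and the control group held 10 arrays from testes whose source is described as preceding irradiation. The rats of both groups were 25 to 27 weeks old, no allele or further agent is named for either group, and the sources used here do not give how long after irradiation the testes were taken. The titles call the arrays biological replicates without naming animals, and the p-values reflect the spread among these arrays. Levels are the deposited log2 signals, whose zero point is unknown, so levels are compared across arrays within a probe set. Between probe sets only changes are compared, and brightness serves to choose the probe set that stands for a gene.

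Spermatogonial stem cells lie on the basement membrane of the seminiferous tubule and either renew themselves or give rise to progenitors that enter differentiation. Sertoli cells, the somatic nurse cells of the tubule, secrete GDNF, which acts on germ cells through RET and GFRA1. In mouse stem cell cultures this signal raises the transcription factors Etv5 and Bcl6b and the helix-loop-helix protein Id4. Foxo1, Taf4b, Sall4 and Zbtb16 are nuclear factors needed for the upkeep of the germ line in mice, and Uchl1 is a ubiquitin hydrolase used as a marker of spermatogonia in several mammals. A whole testis also holds somatic cells, and in such bulk RNA fewer cells of a type and less RNA per cell cannot be told apart.

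Because several of these proteins read DNA or help to assemble the transcription machinery, the 250 bases before the gene start were searched on both strands for 3 motifs. They were TATAAA, the TATA box recognised by TFIID, of which Taf4b encodes a germ cell subunit, GTAAACA, the forkhead motif of the Foxo factors, and CCGGAA, the core recognised by Ets factors such as Etv5. RefSeq promoters on GRCr8 were at hand for 5 of the 8 genes, namely Foxo1, Etv5, Uchl1, Id4 and Taf4b. The 3 windows with a match are shown because they differ in which motif they hold, with the match in capitals.
Taf4b, chr18:6227128-6227377, plus strand: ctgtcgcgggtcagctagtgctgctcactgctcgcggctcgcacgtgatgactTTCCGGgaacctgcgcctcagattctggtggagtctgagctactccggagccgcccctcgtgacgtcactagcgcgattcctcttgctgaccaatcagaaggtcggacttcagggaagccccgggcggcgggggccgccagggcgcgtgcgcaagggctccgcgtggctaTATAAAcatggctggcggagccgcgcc
Etv5, chr11:92113013-92113262, plus strand: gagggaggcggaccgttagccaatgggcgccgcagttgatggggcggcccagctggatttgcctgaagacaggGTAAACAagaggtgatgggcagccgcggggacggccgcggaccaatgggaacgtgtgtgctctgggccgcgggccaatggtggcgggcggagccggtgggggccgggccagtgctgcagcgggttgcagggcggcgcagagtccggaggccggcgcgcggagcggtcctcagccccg
Uchl1, chr14:41849418-41849667, minus strand: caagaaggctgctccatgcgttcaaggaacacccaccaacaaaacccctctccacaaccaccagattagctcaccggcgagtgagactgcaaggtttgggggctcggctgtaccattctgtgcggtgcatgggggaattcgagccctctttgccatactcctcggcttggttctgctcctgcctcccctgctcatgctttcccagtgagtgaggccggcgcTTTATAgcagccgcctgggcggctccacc
In the Taf4b window TATAAA began 27 bases before the gene start and the Ets core, read as TTCCGG, began 197 bases before it. The Etv5 window held GTAAACA 177 bases before the start, and the Uchl1 window held the TATA motif on the other strand, read as TTTATA, 29 bases before the start. The Id4 and Foxo1 windows held none of the 3 letter strings. Among 33469 RefSeq promoters of the same length, 12.9% held TATAAA, 3.21% held GTAAACA and 12.6% held CCGGAA, so these matches describe the windows and are not evidence of binding. The shown windows had 66% (Taf4b), 72.4% (Etv5) and 59.6% (Uchl1) G and C bases, against a median of 51.2% over all promoters.

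Genes of spermatocytes and spermatids were far lower in irradiated testes, and the signals of the stem cell regulators moved little beside them. Of the 16 probe sets, 10 were at or above the array median on 5 or more of the 15 arrays and were tested, standing for 6 genes. Of these 10, 5 were higher in irradiated testes, 2 were lower and 3 did not pass the threshold of 0.05 on limma's adjusted p. The counts were 3 higher and 3 lower after quantile normalization, and 5 higher and 3 lower after median centring of the arrays. Across all 18711 tested probe sets 83.4% passed, 49% as higher and 34.3% as lower. The irradiated and control arrays did not overlap for 3 of the 10, against 65.5% of all tested probe sets. The median change, irradiated minus control, was 0.45 log2 units over the 10 probe sets and 0.30 over all tested probe sets. Taf4b passed the filter only through the irradiated arrays (5 irradiated and 3 control arrays at or above the median), and Bcl6b only through the control arrays (2 irradiated and 10 control arrays). These counts therefore describe the probe sets that passed and not all 8 genes.

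**Figure D1:**
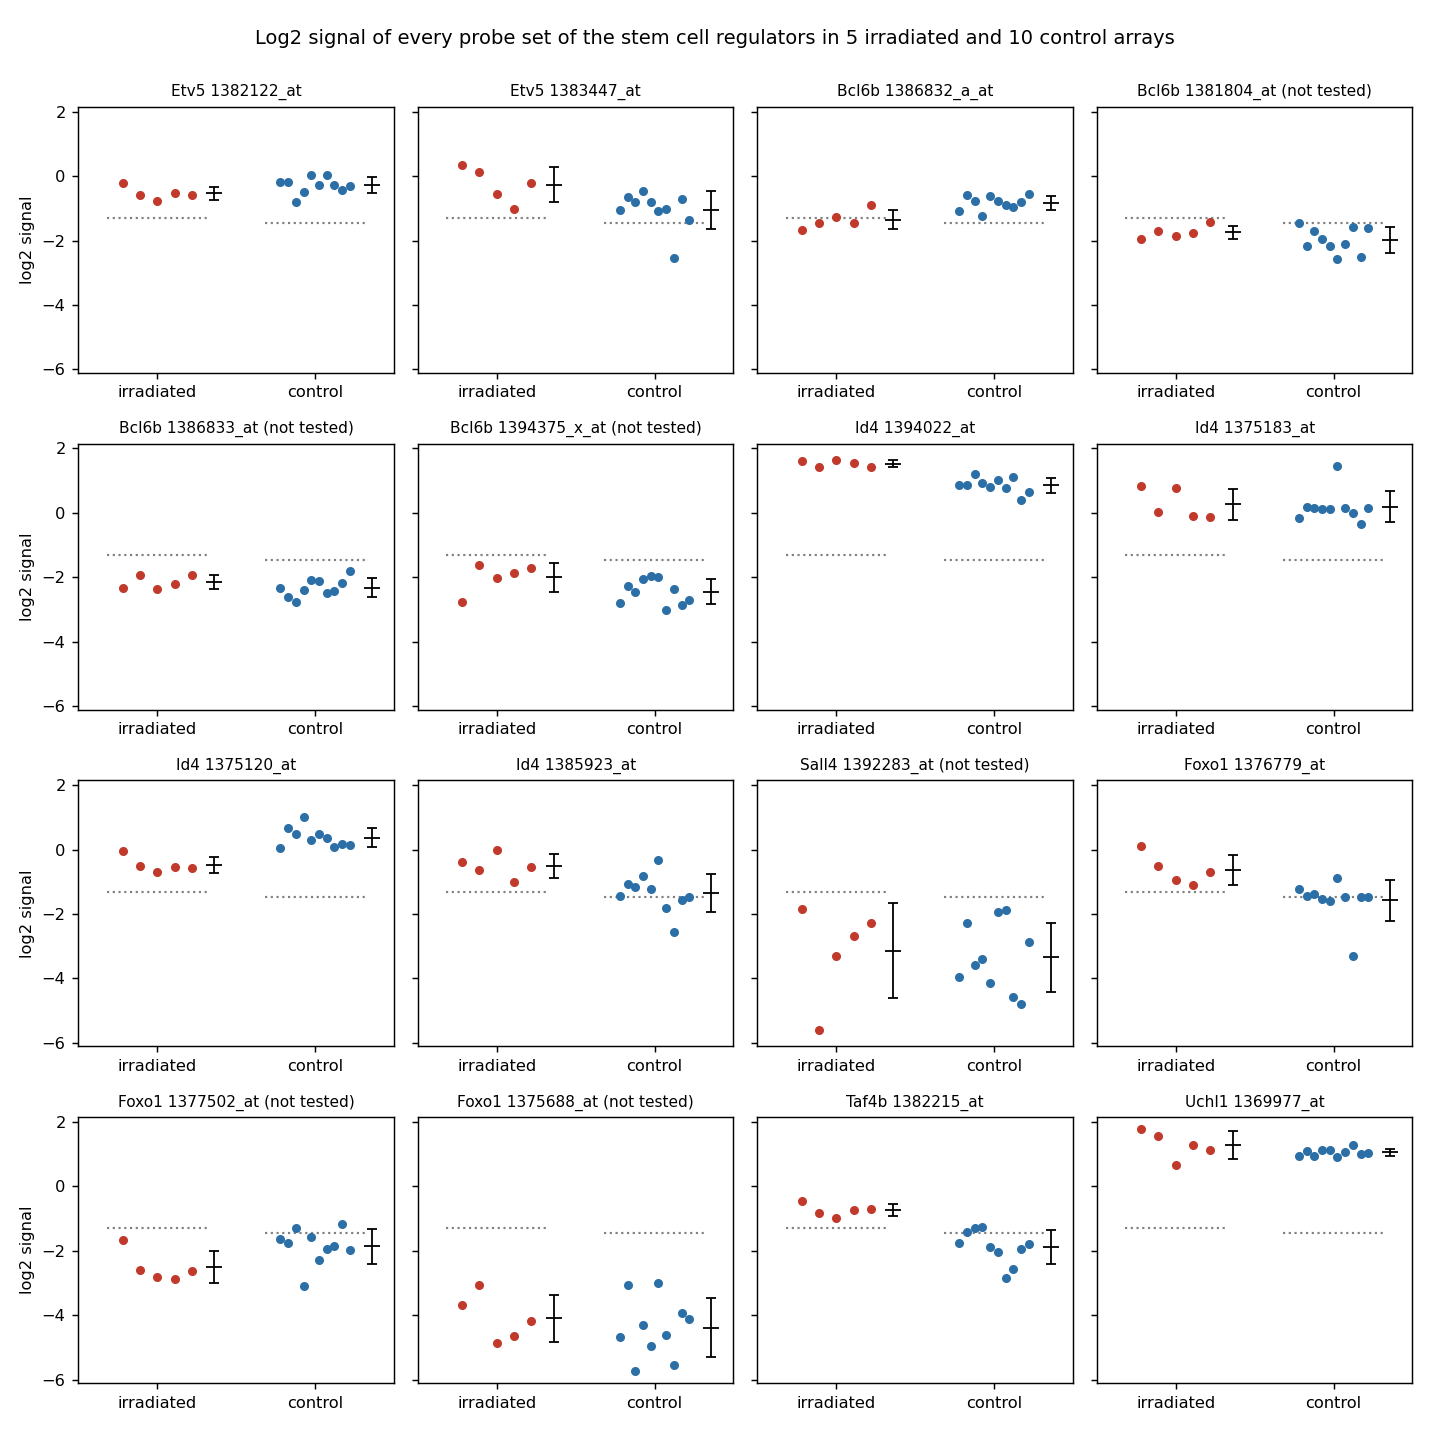
Log2 signal on each array for all 16 probe sets of the stem cell regulators, with 5 irradiated arrays left of 10 control arrays in each panel, bars for the group mean and SD, and dotted lines at the mean array median of each group. Only for Id4 1394022_at, Id4 1375120_at and Taf4b 1382215_at among the tested probe sets do the irradiated and control points not overlap.

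Id4 is an inhibitor of basic helix-loop-helix factors that marks stem cells in the mouse testis, and its 4 probe sets did not move together. Probe set 1394022_at, the brightest, read 1.60, 1.43, 1.65, 1.55 and 1.42 in the irradiated replicates, against a lowest value of 0.39, a median of 0.87 and a highest value of 1.21 in the control replicates. Control values are given in this way, as lowest, median and highest, for each regulator. All irradiated arrays lay above all control arrays. Its mean was 1.53 ± 0.10 in irradiated testes (SD, n = 5) and 0.86 ± 0.23 in control testes (SD, n = 10), a change of 0.67 ± 0.11 (SE; limma adjusted p = 4.04e-05).

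Probe set 1375120_at of Id4 went the other way. It read -0.04, -0.52, -0.69, -0.54 and -0.56 in irradiated testes, against 0.04, 0.32 and 1.01 in control testes. Here every irradiated array lay below every control array, and the change was -0.84 ± 0.15 (SE; limma adjusted p = 7.67e-05). Probe set 1385923_at read -0.39, -0.62, -0.00, -1.02 and -0.54 in irradiated testes, against -2.57, -1.35 and -0.33 in control testes, and rose by 0.84 ± 0.27 (SE; limma adjusted p = 0.0092) with overlapping groups. After quantile normalization this rise was 0.59 with a limma adjusted p of 0.0565. The remaining probe set, 1375183_at, read 0.82, 0.02, 0.77, -0.11 and -0.14 in irradiated testes, against -0.36, 0.14 and 1.45 in control testes. Its groups overlapped throughout, with a difference of 0.09 (95% interval -0.43 to 0.60; limma adjusted p = 0.744).

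The disagreement between Id4 probe sets was itself tested on the within-array difference between them. The level of 1394022_at minus that of 1375120_at was 2.00 ± 0.25 in irradiated testes and 0.49 ± 0.33 in control testes (SD, n = 5 and n = 10), a change of 1.51 (exact permutation, 2-sided, p = 0.000333, the smallest possible, adjusted p = 0.00178 over 16 pairs). The rising probe sets 1394022_at and 1385923_at differed in their changes by -0.17 (adjusted exact permutation p = 0.653). Of the 6 Id4 pairs, 5 passed the threshold and this pair did not. Among all genes with several tested probe sets, 16.9% (456 of 2692) had 1 probe set called higher and another called lower. No single direction is given for Id4 as a gene.

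Etv5, an Ets factor needed in mice to keep stem cells in the tubule, had a pair of probe sets that also differed. The brighter one over all arrays, 1382122_at, read -0.20, -0.58, -0.77, -0.53 and -0.60 in irradiated testes, against -0.80, -0.28 and 0.03 in control testes. The groups overlapped, and the difference was -0.25 (95% interval -0.52 to 0.02; limma adjusted p = 0.0829). It passed the threshold after median centring (-0.41, limma adjusted p = 0.00679), after quantile normalization (-0.57, adjusted p = 0.000652), without irradiated replicate 1 (-0.33, adjusted p = 0.0296) and without control replicate 3 (-0.31, adjusted p = 0.0191).

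The other Etv5 probe set, 1383447_at, read 0.34, 0.12, -0.57, -1.02 and -0.20 in irradiated testes, against -2.55, -0.91 and -0.47 in control testes. In 3 of the 5 irradiated arrays it stood above the highest control array, and the rise was 0.78 ± 0.29 (SE; limma adjusted p = 0.02). The call was lost without irradiated replicate 1 (0.63, limma adjusted p = 0.0703), without irradiated replicate 2 (0.68, adjusted p = 0.0575) and after quantile normalization (0.49, adjusted p = 0.117). The first probe set minus the second was -0.27 ± 0.46 in irradiated testes and 0.76 ± 0.67 in control testes (SD), a change of -1.03 (exact permutation p = 0.00766, adjusted p = 0.0136). Without irradiated replicate 2 the adjusted permutation p of this difference was 0.0551.

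Bcl6b, a transcriptional repressor downstream of GDNF in mouse stem cell cultures, fell by its only tested probe set. Probe set 1386832_a_at read -1.66, -1.45, -1.28, -1.46 and -0.89 in irradiated testes, against -1.24, -0.78 and -0.54 in control testes. The signal was below every control array in 4 of the 5 irradiated arrays, and the change was -0.52 ± 0.13 (SE; limma adjusted p = 0.00174). Since the irradiated mean lay below the array medians, where a signal gives only a bound, the change is at most -0.40 with each array held at no less than its median. The other 3 Bcl6b probe sets, 1381804_at, 1386833_at and 1394375_x_at, were too dim to test. Their means were -1.74, -2.15 and -2.01 in irradiated testes and -1.98, -2.32 and -2.45 in control testes. Without the filter their measured changes were 0.24, 0.17 and 0.44 (limma adjusted p = 0.261, 0.335 and 0.0834), opposite to 1386832_a_at. These changes give no size and did not pass the threshold, so the fall of Bcl6b rests on 1386832_a_at alone.

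Foxo1, a forkhead factor that moves into the nucleus when PI3 kinase and AKT signalling is low, was higher in irradiated testes by its brightest probe set. Probe set 1376779_at read 0.11, -0.52, -0.94, -1.10 and -0.71 in irradiated testes, against -3.29, -1.48 and -0.87 in control testes. Of the 5 irradiated arrays, 3 stood above the highest control array. The measured rise was 0.95 ± 0.30 (SE; limma adjusted p = 0.00748), and at least 0.72 with each array held at no less than its median, because the control mean lay below it. The probe sets 1377502_at and 1375688_at were too dim to test. The first averaged -2.51 ± 0.49 in irradiated testes and -1.86 ± 0.54 in control testes (SD). Without the filter its measured change was -0.65 (limma adjusted p = 0.0474), opposite to 1376779_at, but it lay below the array median on all 5 irradiated arrays and on 8 of 10 control arrays. That of 1375688_at was 0.30 (adjusted p = 0.563), so the rise of Foxo1 was measured by 1 of 3 probe sets.

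Taf4b, a germ cell form of a TFIID subunit whose loss in mice empties the tubules with age, was higher in irradiated testes by its single probe set. Probe set 1382215_at read -0.46, -0.82, -0.98, -0.75 and -0.71 in irradiated testes, against -2.86, -1.83 and -1.27 in control testes. All irradiated arrays lay above all control arrays. The measured change was 1.14 ± 0.23 (SE; limma adjusted p = 0.000207), and at least 0.68 with each array held at no less than its median, since 3 of 10 control arrays reached it. That lower bound lies below the measured rises of Id4 1385923_at (0.84) and Etv5 1383447_at (0.78). Those rises were kept as measured, although only 6 and 9 of their 10 control arrays reached the median, so the values are not treated alike. Whether Taf4b rose the most is therefore not settled by these values. Without control replicates 6, 7 and 8, whose RNA integrity measure stood apart, the measured change was 0.88 (limma adjusted p = 6.66e-05).

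Uchl1, which removes ubiquitin and is also abundant in neurons, had 1 probe set, 1369977_at. It read 1.77, 1.57, 0.65, 1.29 and 1.13 in irradiated testes, against 0.91, 1.05 and 1.28 in control testes. The irradiated arrays spread to both sides of the control arrays, 3 above their highest value and 1 below their lowest. The means were 1.28 ± 0.43 in irradiated testes and 1.05 ± 0.11 in control testes (SD), a difference of 0.23 (95% interval -0.06 to 0.53; limma adjusted p = 0.13). Without irradiated replicate 3 it was 0.39 (limma adjusted p = 0.00416).

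Sall4, a zinc finger factor that partners with Zbtb16 in mouse spermatogonia, stayed below the array median on all 15 arrays. Probe set 1392283_at read -1.86, -5.60, -3.29, -2.69 and -2.29 in irradiated testes, against -4.81, -3.49 and -1.89 in control testes. A dim probe set gives no size of change, and without the filter limma's adjusted p was 0.791.

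**Figure D2:**
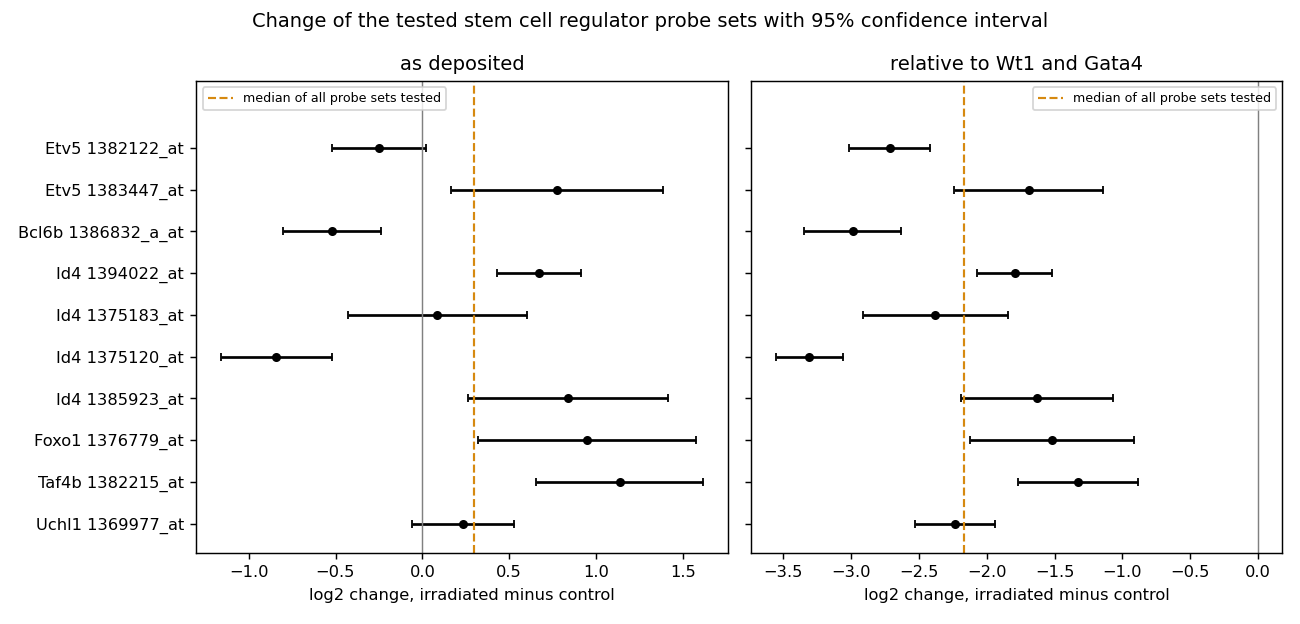
Change in log2 signal, irradiated minus control, for the 10 tested probe sets of the stem cell regulators with 95% intervals from limma, as deposited and relative to the Sertoli genes Wt1 and Gata4. As deposited the changes run from -0.84 (Id4 1375120_at) to 1.14 (Taf4b as measured, at least 0.68 by its bound), and relative to the Sertoli genes all 10 lie below 0.

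The same levels were then set against Sertoli cell genes, since Sertoli cells form the niche of these germ cells. The Sertoli level was the mean log2 signal of Wt1 (1377223_at) and Gata4 (1387894_at), a pair of transcription factors of Sertoli cells, the second also present in Leydig cells. It was 2.52 ± 0.12 in irradiated testes (n = 5) and 0.05 ± 0.15 in control testes (n = 10; SD), a change of 2.47 (exact permutation p = 0.000333, the smallest possible). Wt1 averaged 2.33 in irradiated testes and 0.01 in control testes, and Gata4 averaged 2.71 in irradiated testes and 0.10 in control testes. All 10 tested probe sets of the stem cell regulators were lower relative to this level (limma adjusted p between 1.65e-14 and 7.71e-05). Of all tested probe sets, 85.8% were lower in the same comparison and 5.48% were higher. The median relative change was -2.01 for the 10 and -2.17 for all tested probe sets, so the fall of these probe sets against Sertoli genes was close to the median across the array. For 7 of the 10 the irradiated and control arrays did not overlap, against 81.6% of all tested probe sets.

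**Figure D3:**
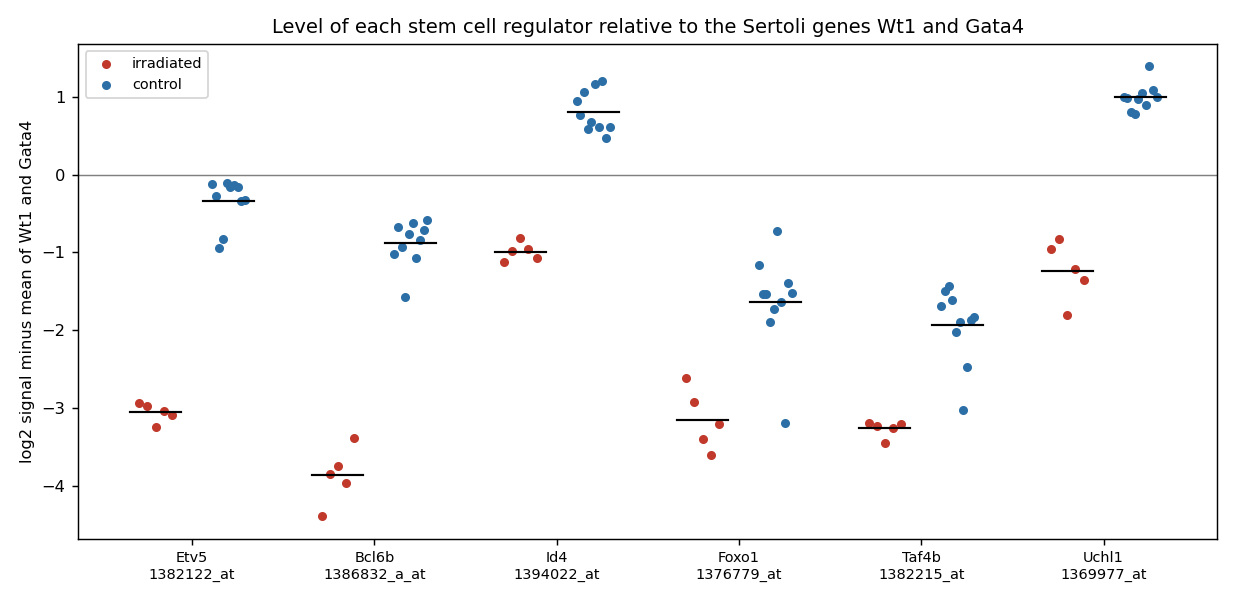
Log2 signal of the brightest probe set of each stem cell regulator minus the Sertoli level of the same array, irradiated arrays left of control arrays, with bars at the group means. Id4 averages -0.99 in irradiated testes and 0.81 in control testes, and Uchl1 averages -1.24 in irradiated testes and 1.00 in control testes.

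Among the regulators the relative fall was largest for Id4 1375120_at, at -3.31 (95% interval -3.55 to -3.06), and Bcl6b 1386832_a_at, at -2.99 (-3.34 to -2.63). With Bcl6b held at the array medians the relative change is at most -2.87. Etv5 1382122_at changed by -2.72 (-3.02 to -2.41), Id4 1375183_at by -2.38 (-2.91 to -1.85), Uchl1 by -2.23 (-2.53 to -1.94) and Id4 1394022_at by -1.79 (-2.07 to -1.52). Etv5 1383447_at changed by -1.69 (-2.24 to -1.14) and Id4 1385923_at by -1.63 (-2.19 to -1.07). The groups overlapped for both of these and for Foxo1. Foxo1, at -1.52 (-2.12 to -0.92), and Taf4b, at -1.33 (-1.77 to -0.89), lay partly below the array median in control testes, so their control level and the size of their relative fall are less certain. The size of every relative change also depends on which Sertoli probe sets are used. The dimmer Wt1 (1369695_at) and Gata4 (1370293_at) probe sets rose by 1.59 and 0.94. Against those, a comparison added after the data had been seen, 6 of the 10 passed as lower, as did 61.7% of all tested probe sets. Those 6 were the tested probe sets of Bcl6b and Uchl1, 3 of the 4 of Id4 and 1 of the 2 of Etv5, with changes from -2.10 to -0.59. Foxo1, Taf4b, Id4 1385923_at and Etv5 1383447_at differed by -0.32, -0.13, -0.43 and -0.49 and did not pass (limma adjusted p between 0.107 and 0.567).

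Most close relatives of the regulators, taken from one list, were higher in irradiated testes. Of 12 tested relatives, 9 were higher, 3 were lower and the median change was 1.05, against 0.20 over the brightest probe sets of all 10811 tested genes, of which 47.5% were higher and 38% lower. All 12 are given, more than the naming rule asks. Within the Id family, Id2 rose by 4.05 ± 0.20 (SE; limma adjusted p = 6.87e-12) by its brightest probe set and by 1.61 by the other, Id3 by at least 2.26 and Id1 by 1.22, against 0.67 for the brightest Id4 probe set. Foxo3 rose by 2.60 and Foxo4 by 0.48. Taf4, the general form of the TFIID subunit, rose by 0.85, Etv1 rose by at least 2.75 by its brightest probe set and by 1.39 and 1.89 by others, Sall2 by at least 0.71, and Bcl6 was at least 3.45-fold higher. The ubiquitin hydrolases Uchl5 and Uchl3 changed by -2.94 ± 0.12 (SE; limma adjusted p = 6.55e-13) and -1.36, and Zbtb17 was at least 1.16-fold lower in irradiated testes. Bcl6 passed the filter only through irradiated arrays, and Zbtb17 only through control arrays.

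Other genes of undifferentiated spermatogonia gave few measurable signals. Of 29 genes on that list 18 had a probe set and 6 were tested, of which 2 were higher, 3 were lower and 1 did not pass. Across all 10811 tested genes 47.5% were higher and 38% lower. The 3 lower genes were below the array median on every irradiated array, so they passed the filter only through control arrays. For Sox3, a transcription factor of early spermatogonia, the bound leaves no fall (0.01). The largest rise was in Itga6, an integrin subunit, at 3.62, although its other probe sets ranged from -0.55 to 3.20. The largest fall was in Epcam, an epithelial adhesion molecule of spermatogonia, at least 4.94-fold lower in irradiated testes. Gfra1, through which GDNF acts, was named after the values were seen. It was at least 2.25-fold lower, with its other tested probe set at -0.27. Over these 6 genes the mean log2 level lay between -0.90 and -0.65 in irradiated arrays and between -0.84 and -0.45 in control arrays. Of 7 tested genes of differentiating spermatogonia, 3 were higher, 2 lower and 2 did not pass. The largest rise was in Kit, the stem cell factor receptor, which Leydig cells also carry, at least 3.45-fold higher. The largest measured fall was in Sycp1, of the synaptonemal complex, at least 1.46-fold lower, a gene also counted in the spermatocyte list. By its bound Tex101, a germ cell surface protein named after the values were seen, fell further, at least 11.1-fold. Kit passed the filter only through irradiated arrays, and Sycp1 and Tex101 only through control arrays. All 3 tested genes of germ cells in general fell, with Tdrd1, a piRNA pathway protein, at most at -4.49.

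The cell types around the stem cells moved with the groups, and their part in the changes above was not tested. All 6 tested spermatocyte genes and all 12 tested spermatid genes were lower in irradiated testes, with medians of -4.56 and -6.74 once each array is held at no less than its median (-6.78 and -8.43 as measured). All 6 spermatocyte genes and 8 of the 12 spermatid genes lay below the array median on every irradiated array, so these sizes are bounds. Those genes passed the filter only through control arrays, so the counts describe the genes that passed. The mean spermatocyte level ranged from -3.98 to -3.25 in irradiated arrays and from 2.69 to 3.27 in control arrays. The spermatocyte gene Ldhc, a germ cell lactate dehydrogenase, was at least 101-fold lower. Crisp2, an acrosomal protein, had the largest measured spermatid fall and was at least 110-fold lower, while Oaz3, an antizyme of polyamine synthesis named after the values were seen, was at least 129-fold lower.

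All tested genes of Sertoli cells (14), Leydig cells (8), peritubular myoid cells (7) and macrophages (9) were higher, as were 7 of 8 of endothelial cells, 1 not passing. Arrays of a group whose mean lay below the array medians were again held at no less than their medians. The median change was then 2.29 for Sertoli cells, 3.23 for Leydig cells, 1.76 for peritubular cells, 2.29 for macrophages and 0.62 for endothelial cells. As measured, the macrophage and endothelial medians were 3.55 and 1.14, and 4 of the 9 and 3 of the 8 genes lay below the array median on every control array. The same held for 2 of the 7 peritubular genes. Such genes passed the filter only through irradiated arrays, so the counts describe the genes that passed. The mean Sertoli level ranged from 2.89 to 3.16 in irradiated arrays and from 0.79 to 1.04 in control arrays, and the mean Leydig level from 2.69 to 3.10 in irradiated arrays and from -0.58 to 0.15 in control arrays. By brightest probe sets the largest rises were in Vim for Sertoli cells (2.99) and Cyp17a1 for Leydig cells (4.06). The smallest Sertoli rise was in Inhbb (0.97). Nr5a1, also on the Sertoli list, rose by 2.61 by its brightest probe set and by 5.86 by the other. Inhbb and Nr5a1 were named after the values were seen. By measured change the largest macrophage rise was in Ptprc, at least 2.79-fold. For peritubular cells it was in Tagln, at least 4.76-fold, and for endothelial cells in Kdr, at least 2.57-fold. By the bounds other genes, named after the values were seen, rose further, namely C1qa at least 9.18-fold, Tpm2 at least 6.46-fold and Cldn5, above the medians, by 2.08 on the log2 scale. Beside Uchl1, of 4 tested genes of neurons and Schwann cells 3 were higher and 1 lower, with S100b at 2.49 and Syp at -0.34, while the neuronal genes Nefl, Nefm, Elavl4 and Snap25 and the Schwann cell gene Sox10 were too dim to test.

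**Figure D4:**
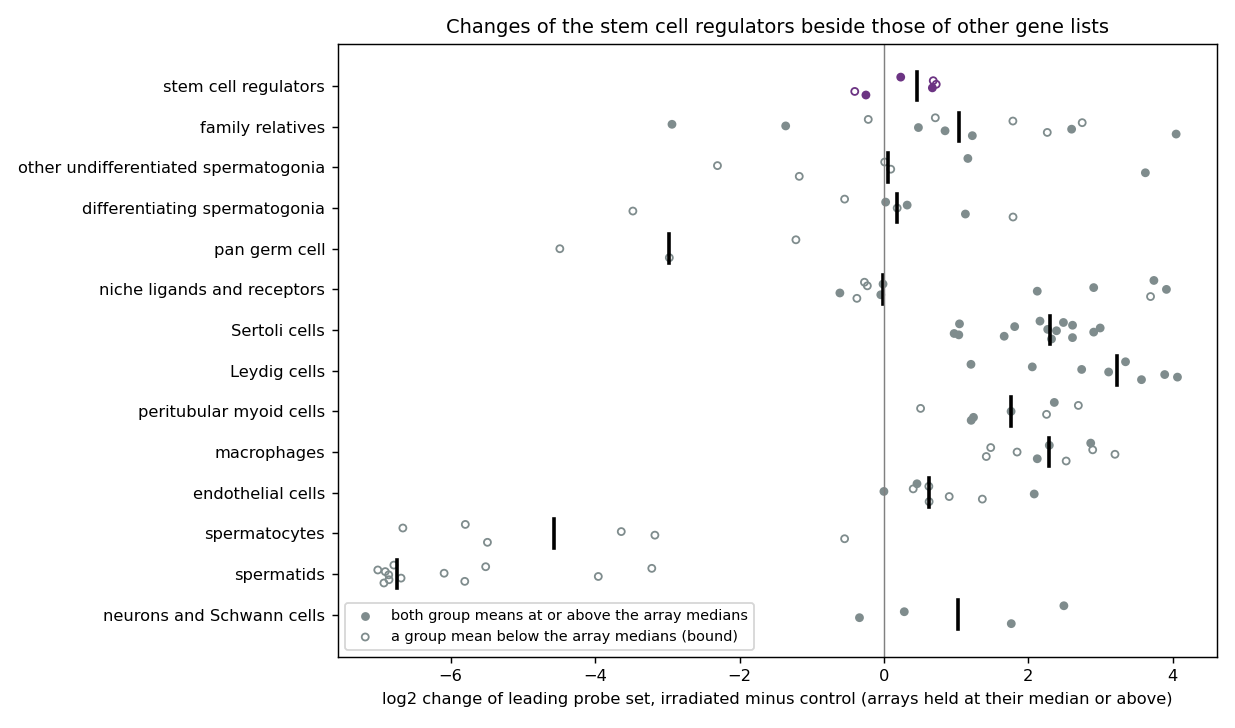
Change in log2 signal, irradiated minus control, of the brightest probe set of each tested gene, by gene list. Where a group mean lay below the array medians, its arrays were held at no less than their medians. Such genes have open circles, and black bars mark list medians. The stem cell regulators have a median of 0.45, between the spermatocyte and spermatid lists at -4.56 and -6.74 and the Leydig list at 3.23.

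The profiles closest to each regulator were found by the root mean square difference of mean-centred log2 levels over the 15 arrays and 10811 genes. The nearest to Id4 1394022_at were Nsa2 (0.104) and Phax (0.113), and the nearest to Etv5 1382122_at were Tmem35b (0.153) and Zbtb24 (0.160). Bcl6b was closest to Gulo (0.0971) and Faap100 (0.150), and Uchl1 to Ddx54 (0.154) and Fibp (0.158). Taf4b was closest to Spcs3 (0.248) and Srsf7 (0.250), and Foxo1 to Ssc4d (0.365) and Heg1 (0.385).

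Array medians averaged -1.31 ± 0.05 in irradiated testes and -1.47 ± 0.07 in control testes (SD), and the actin difference between 3' and 5' probe sets, a measure of RNA integrity, averaged 1.02 ± 0.10 in irradiated testes and 1.02 ± 0.42 in control testes. Control replicates 6, 7 and 8 had the highest actin differences, 1.89, 1.37 and 1.44. Irradiated replicate 1 gave the highest irradiated value for 7 of the 10 tested probe sets of the stem cell regulators, and also had the highest irradiated array median (-1.26) and Sertoli level (2.73). Its part in the results was not tested beyond leaving it out.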

How the data were processed

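Gene expression was measured on 15 Affymetrix 3' expression arrays, per the labels' protocols from 10 µg of total testis RNA made into biotin-labelled cRNA. The authors deposited log2 values, 1 for each probe set on each array. The authors made the signals with MAS5, per the submitters' processing notes, and their scaling is not stated there. No array column was left unused (0 columns). The values were used as deposited, although linear signals had been planned for. Genes were named from the platform annotation of 2016, by single symbols.

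Probe sets at or above the array median on 5 or more of 15 arrays were tested, which kept 18711 of 31042. The groups were compared by lmFit and eBayes of limma 3.58.1 (R 4.3.3), 2-sided, with Benjamini-Hochberg adjustment over all tested probe sets and a threshold of 0.05. A second fit subtracted each array's Sertoli level. Where a group's mean for a probe set lay below the array medians, that group's arrays were held at no less than their medians, giving a bound. Groups with a mean at or above the array medians were kept as measured. Differences between probe sets of a gene were tested by exact permutation over 3003 regroupings, adjusted over 16 pairs. The p-values of single pairs are given only where both probe sets were tested. Counts and ranges of pairs under alternative runs include dim probe sets. The scripts were tested on simulated data. Replicate numbers did not pair the samples. Named were all probe sets of the 8 genes, Wt1 and Gata4, the largest measured rise and fall of each list, and the 2 nearest profiles. The genes and lists were chosen with earlier results of these data known. The number of arrays limits the precision.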

Additional observations from a re-analysis of the deposited data

Results flagged for a closer look

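Of 32 sets of values (16 probe sets in each group), 5 held an array whose gap to its nearest neighbour was large for the range of its group (Dixon's test). Chance alone flags about 1 in 20 such sets. Irradiated replicate 1 was the highest irradiated array for Id4 1375120_at, at -0.04 with the next at -0.52, and without it the change was -0.95 (limma adjusted p = 3.32e-05). The same replicate was highest for Foxo1 1377502_at, at -1.66 with the next at -2.61, a probe set too dim to test. Control replicate 8 was the lowest control array for Etv5 1383447_at, at -2.55, and for Foxo1 1376779_at, at -3.29. Without it the changes were 0.61 (limma adjusted p = 0.0103) and 0.76 (adjusted p = 0.000784). Control replicate 6 was the highest control array for Id4 1375183_at, at 1.45 with the next at 0.19, and without it the difference was 0.23 (limma adjusted p = 0.218).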

How the results depend on the processing

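The tested regulator probe sets past the threshold kept their direction under every alternative run. With a filter at the 75th percentile, where fewer probe sets were tested, 5360 were higher and 4082 lower. Among the regulator probe sets 1 was then higher and 1 lower, both of Id4. Relative to Sertoli genes that filter gave 8818 lower, with 5 regulator probe sets lower, of Etv5, Id4 and Uchl1. No filter gave 26836 lower. Quantile normalization moved the median change of all probe sets to 0.04 (0.14 with median centring). After it 3 regulator probe sets were higher, Uchl1 differed by -0.037 and Id4 1375183_at by -0.27 (-0.068 with median centring). The count higher relative to Sertoli genes was 439 with a pseudocount of 1 and 1709 against the Sertoli list's median. Against the dimmer Wt1 and Gata4 probe sets it was 3499, with 6 regulator probe sets lower. The cause was not tested. Leaving out each replicate in turn gave 8916 to 9189 higher and 6214 to 6468 lower, with 4 to 6 regulator probe sets higher and 2 to 3 lower. It gave 8 to 11 differing pairs of 16 (dim probe sets included). Relative to Sertoli genes it gave 939 to 1075 higher and 15893 to 16098 lower, with all 10 regulator probe sets lower each time. The range was -0.049 to 0.23 for Id4 1375183_at, and -0.012 to 0.15 for the pair of dim Bcl6b probe sets 1381804_at and 1386833_at. Same-numbered arrays correlated at -0.0946 to 0.0970, and 2 of 5 irradiated arrays correlated best with their own number. The fit with the replicate block (replicates 1 to 5) gave 8939 higher and 6184 lower, with 4 regulator probe sets higher and 2 lower. It lost Etv5 1383447_at (0.48, limma adjusted p = 0.122), which the same arrays without the block also lost (adjusted p = 0.0759). Signal near the array median limits Taf4b, Foxo1, Bcl6b and Sall4.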

Other observations

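The ligands and receptors that reach spermatogonia from their surroundings were mixed. Of 14 genes on that list 11 were tested, of which 5 were higher in irradiated testes, 4 were lower and 2 did not pass, with a median change of -0.01. Over all 10811 tested genes 47.5% were higher and 38% lower, with a median change of 0.20, so these counts lay near the share across the array. Of the lower genes, 3 were below the array median on every irradiated array and passed the filter only through control arrays. The largest measured rise was in Fgfr1, a receptor for FGF2, at least 3.69 on the log2 scale, with its other probe set at 2.74. The chemokine Cxcl12 and the growth factor Igf1, named after the values were seen, rose by 3.91 and 3.74 by probe sets above the array median. The largest measured fall was in Nrg1, a ligand of ERBB receptors, lower by at least 1.21-fold. The macrophage growth factor Csf1, also named afterwards, changed by -0.61 by its brightest probe set, with others at 0.23 to 3.00. Gdnf, the Sertoli cell ligand of the RET pathway, was too dim to test, with means of -3.40 in irradiated testes and -4.33 in control testes.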
